A study of Mus musculus with 8 samples.

Results

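Regulatory T (Treg) cells restrain immune responses, and they circulate as resting central cells (cTreg) or, after activation, as effector cells (eTreg). Passage from the resting to the effector state is accompanied by opening of regulatory DNA, which ATAC-seq records through a transposase that inserts adapters where chromatin is accessible. Pggt1b provides the catalytic subunit of geranylgeranyl transferase type I, the enzyme that attaches a geranylgeranyl lipid to small GTPases and so lets them act at membranes.

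The sites described here were those that opened between wild-type (WT) cTreg and WT eTreg cells and were much less accessible in Pggt1b-deficient eTreg cells (Pggt1bKO in the sample titles, here KO). They numbered 1780 of the 79758 sites in the deposited table, or 2.23%. They were chosen by their measured values in WT cTreg, WT eTreg and KO eTreg libraries, in CPM (counts scaled to the library total over all sites and expressed per 1e6). A site had to have at least 4 CPM in WT eTreg cells, a log2 ratio of at least 1 for WT eTreg over WT cTreg and one of -1 or less for KO over WT eTreg, with 0.5 CPM added to each level. The first pair of conditions was met by 3053 sites, called effector-opened here. Of these, 58.3% met the last condition and are called lost sites, and 1273 did not and serve for comparison as the other effector-opened sites.

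All cells were Treg cells sorted from the spleen and lymph nodes of mixed bone marrow chimeras, mice whose blood cells derive from more than 1 donor marrow. The 4 groups were WT cTreg, WT eTreg, KO cTreg and KO eTreg cells, each with 2 libraries, and no treatment is named. The deleted allele, the driver of any Cre recombinase, the sort markers, the age of the mice, the hosts and any pooling of animals were not stated in the labels. Nor do they tell whether replicate libraries are from different chimeric mice, and each p-value below therefore reflects only how these libraries vary. Library totals ran from 1664702 to 14974253 counts, and the KO eTreg libraries were the smallest, with 2255214 and 1664702. Sites are named by their position on mm9. They were not assigned to genes, and no sequence was read for them, because the gene and promoter tables used here belong to another build. For that reason the cell type and genotype labels were not checked against marker loci.

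By their selection, the lost sites had higher levels in WT eTreg than in WT cTreg cells. KO eTreg levels at these sites were mostly near those of WT cTreg cells, but mostly above those of KO cTreg cells. The median log2 ratio of eTreg to cTreg cells was 0.70 within KO cells. It was 1.75 within WT cells, where the choice required at least 1. Lost sites' share of all counts was 0.712% and 0.665% in the WT cTreg libraries and 2.35% and 2.61% in the WT eTreg libraries. It was 0.381% and 0.470% in the KO cTreg libraries and 0.724% and 0.842% in the KO eTreg libraries. Thus both WT eTreg libraries lay far above the other 6, as the selection requires, and both KO cTreg libraries lay below all others, in a group that the selection did not use. The mean share (± SD, n = 2) was 2.48 ± 0.185% for WT eTreg and 0.688 ± 0.0335% for WT cTreg cells, and 0.783 ± 0.0835% for KO eTreg and 0.425 ± 0.0626% for KO cTreg cells. An exact permutation test of 2 libraries against 2 cannot go below p = 0.33, so these shares carry no test. In bulk libraries, fewer cells with an open site and a smaller opening in each cell cannot be told apart.

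**Figure D1:**
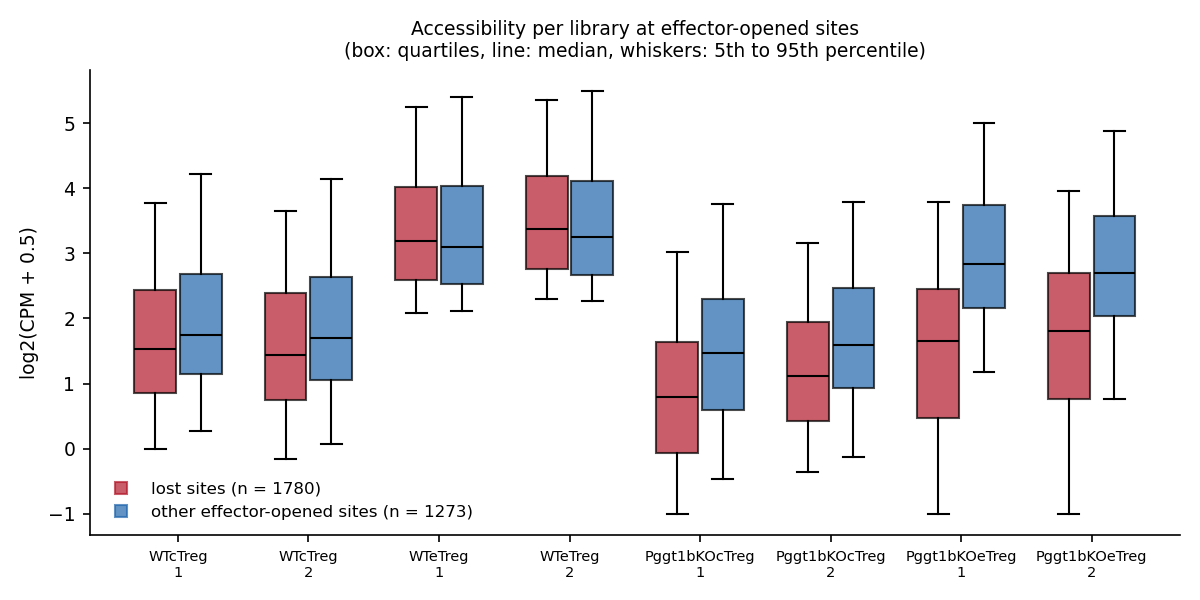
Accessibility of lost sites (red, n = 1780) and other effector-opened sites (blue, n = 1273) in each of the 8 libraries, as log2(CPM + 0.5); boxes span the quartiles, lines mark medians and whiskers run from the 5th to the 95th percentile of sites. Both sets have similar medians in the WT eTreg libraries, while in the KO eTreg libraries the lost sites have medians of 2.66 and 3.00 CPM and the others 6.65 and 6.01 CPM. The sets were split by their KO eTreg level, so the choice itself sets that last gap.

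Site by site, the median level of the lost sites was 2.33 CPM in WT cTreg, 9.42 CPM in WT eTreg, 1.44 CPM in KO cTreg and 2.55 CPM in KO eTreg cells. WT eTreg levels spanned 4.01 to 140.8 CPM, with quartiles of 6.0 and 16.9 CPM, so most lost sites were modest openings. The other effector-opened sites had a similar median in WT eTreg cells, 8.64 CPM, and in WT cTreg cells, 2.82 CPM. They had 2.44 CPM in KO cTreg and 6.38 CPM in KO eTreg cells, the level by which they were split from the lost sites. The boxes by library show these same orders in each replicate.

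The selected contrasts are given as a description. The median log2 ratio at lost sites was 1.75 for WT eTreg over WT cTreg and -1.59 for KO over WT eTreg, with the lowest at -4.64. The level in KO eTreg cells was close to that of WT cTreg cells: it was above it at 1015 sites and below it at 765, with a median log2 ratio of 0.09. Expressed as the part of the WT gap between cTreg and eTreg levels that was present in KO eTreg cells, the median was 3.0% at lost sites (quartiles -10.6% and 16.1%) and 49.0% at the other effector-opened sites. Every group in these comparisons was used in the choice. The conditions cap this part at lost sites and keep KO eTreg levels above WT cTreg ones at the others, so nothing is read from the difference. The word lost therefore means a level near the WT cTreg one, not the absence of signal: 48 of the 1780 sites had no count in both KO eTreg libraries. Among the 4 groups, KO cTreg cells had the lowest level at 1321 lost sites, KO eTreg cells at 302 and WT cTreg cells at 157.

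Low counts set a limit on single sites. At 4 CPM a site had 105 counts over both WT eTreg libraries but 15.7 over both KO eTreg libraries, and 565 lost sites had 6 counts or fewer in the latter. With the KO eTreg libraries taken singly, 1285 lost sites had a log2 ratio of -1 or less to WT eTreg cells in each, 320 in replicate 1 only and 175 in replicate 2 only. No gap in the data marked the bounds of the set: 379 lost sites had a ratio between -1.25 and -1, and the same number of effector-opened sites, 379, lay just outside, between -1 and -0.75. At the far ends, 463 lost sites had a ratio of -2 or less, and 159 effector-opened sites had a ratio of 0 or more.

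The sites nearest to each bound show how little separates them. By WT eTreg level, chr12:114463053-114463133 lay inside at 4.01 CPM and chr10:30429878-30429941 outside at 3.97 CPM. By the ratio of WT eTreg to WT cTreg cells, chr4:148277106-148277313 lay inside at 1.0001 and chr2:146040470-146040740 outside at 0.99872. By the ratio of KO to WT eTreg cells, chr2:3256537-3256651 lay inside at -1.0011 and chr4:106460450-106460672 outside at -0.99843.

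Whether the pattern recurs in libraries that did not choose the sites was examined by applying the same conditions to replicates 1 alone and reading the result in replicates 2, and the reverse. Replicate numbers here only divide the libraries. The conditions were met in replicates 1 by 1595 sites. In replicates 2, 99.5% of these had a higher level in WT eTreg than in WT cTreg cells, against 49.2% of all sites, with a median log2 ratio of 1.81. In the same libraries 96.7% had a lower level in KO than in WT eTreg cells, against 56.2% of all sites, with a median of -1.41 where the choosing libraries had -1.70. Of the 1282 sites that were effector-opened but not lost in replicates 1, 87.0% were lower in KO eTreg cells in replicates 2, with a median of -0.79. All conditions were met again at 1009 of the 1595 sites (63.3%), beside 31.0% of those 1282 sites and 2.64% of all sites.

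The reverse reading gave the same picture. The 2102 sites chosen in replicates 2 had a median ratio of 1.44 for WT eTreg over WT cTreg in replicates 1, down from 1.77. Their median for KO over WT eTreg was -1.32 there, down in size from -1.68, and 93.1% were lower, against 54.4% of all sites. Among the 1574 sites that were effector-opened but not lost in replicates 2, 78.4% were lower, with a median of -0.60. The conditions were met again at 48.0% of the 2102 and were met at 20.5% of the 1574. These are values of 1 library against 1 and carry no test.

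The replicate readings also give ratios that involve the KO cTreg libraries, which had no part in the choice. At sites chosen in replicates 1, the median ratio of KO to WT cTreg cells in replicates 2 was -0.40, and 75.0% of sites were lower, against 66.1% of the 1282 and 51.5% of all sites. At those chosen in replicates 2 it was -0.69 in replicates 1, and 86.8% were lower, against 77.5% of the 1574 and 54.9% of all sites. KO eTreg cells had a higher level than KO cTreg cells at 78.0% and 77.3% of the chosen sites. The shares were 81.6% and 83.9% of the effector-opened sites that were not lost and 43.4% and 43.7% of all sites, so both kinds of effector-opened site leaned the same way.

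**Figure D2:**
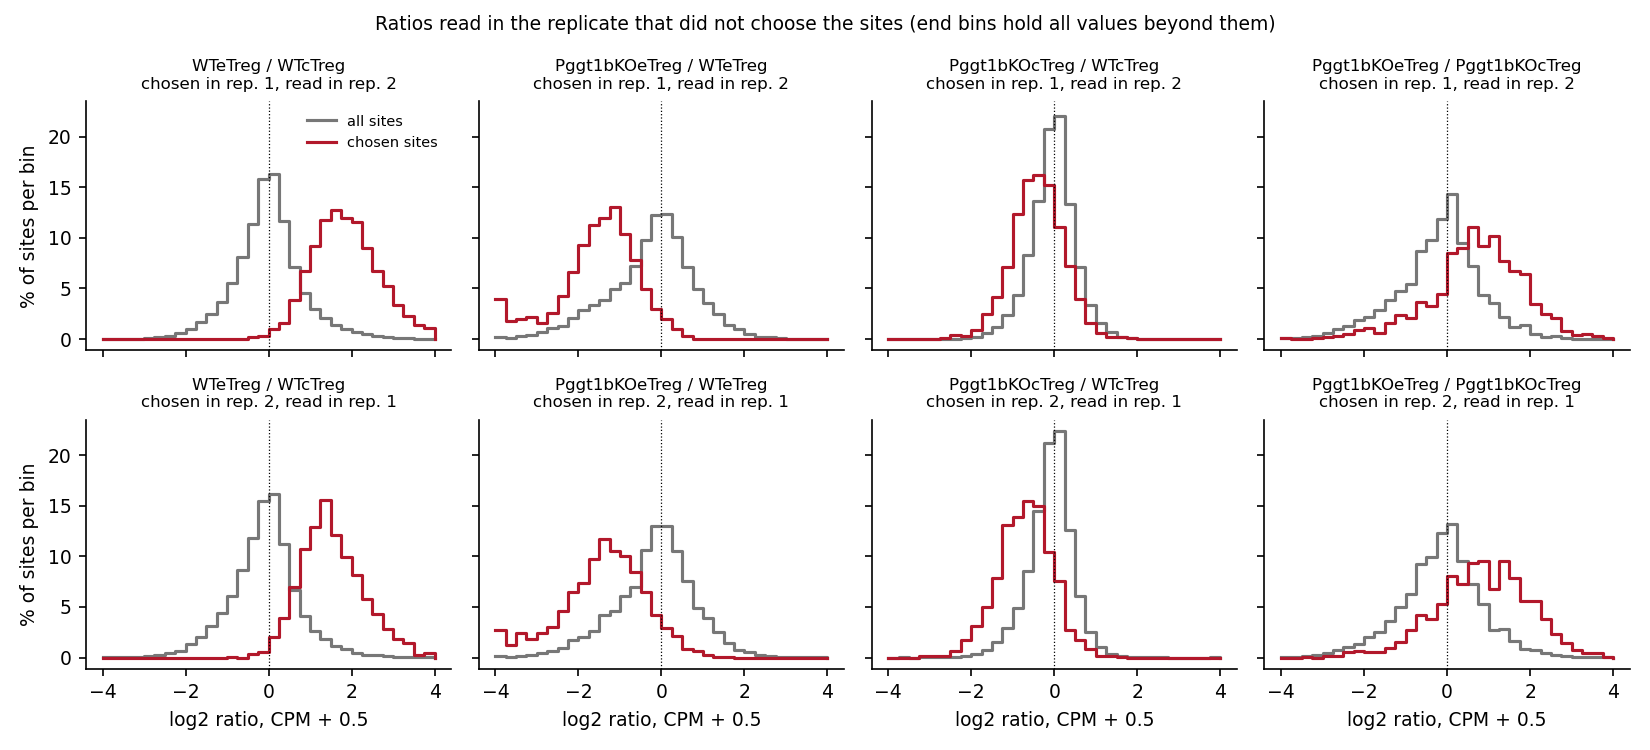
Distribution of log2 ratios of CPM + 0.5 (bins of 0.25) at sites chosen in 1 replicate and read in the other (red) and at all sites (grey), as a percentage of each set; the top row was chosen in replicates 1 (1595 sites) and the bottom row in replicates 2 (2102 sites). The red curves lie mostly to the right of 0 for WT eTreg over WT cTreg and for KO eTreg over cTreg. They lie mostly to the left of 0 for both ratios of KO to WT cells. For KO eTreg over cTreg 78.0% (top) and 77.3% (bottom) of chosen sites are above 0, and for KO over WT cTreg 75.0% and 86.8% are below.

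The next comparison asked whether the lost sites already differed between genotypes in cTreg cells. A minority fell there without Pggt1b and none rose. Of the 1780 lost sites, all of which passed the filter on low counts, 274 fell in KO cTreg cells (15.4%), where 1.69% of all 75352 tested sites did (edgeR quasi-likelihood test, Benjamini-Hochberg adjusted p under 0.05, n = 2 and 2). The number that rose was 0, where 0.53% of all tested sites did. DESeq2 and limma-voom also called 0 higher, beside 0.315% and 1.55% of all their sites. At an unadjusted p under 0.05 edgeR had 753 lost sites lower and 9 higher, beside 6478 and 3858 of all 75352 tested sites. The median log2 fold change was -0.76, with quartiles of -1.23 and -0.30, beside -0.03 over all tested sites. It was -0.74 with the 20 sites that had a group at no count set at their bounds. The WT cTreg values in this comparison were also used, as the low group, to choose the sites. That choice favours a rise here, and the size of what it adds to the ratio was not tested.

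Most single lost sites did not pass this test, yet the lean was broad. In 87.1% of lost sites (1550 of 1780) the log2 ratio was below 0, against 53.8% of all sites. Both KO cTreg libraries lay below both WT cTreg libraries at 1048 lost sites (58.9%), where 26.4% of all sites did so, and above both at 52 (2.92%), where 20.6% did. Among the other effector-opened sites, 97 of 1273 fell (7.62%) and 8 rose (0.628%), and the median change was -0.37 on the log2 scale. A difference between the lost and the other effector-opened sites was not tested. Without any single cTreg library fewer sites fell, among lost sites and over all tested sites. The median log2 fold change of lost sites was -0.58 without KO cTreg replicate 1, beside -0.04 over all tested sites. It was -0.70 without WT cTreg replicate 1 and -0.75 without WT cTreg replicate 2, beside -0.03 and -0.025. DESeq2 called 160 lost sites lower, beside 0.775% of all its sites. With all libraries thinned to the smallest total, edgeR tested 37236 sites and called 14 lost sites, beside 0.215% of the sites tested.

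**Figure D3:**
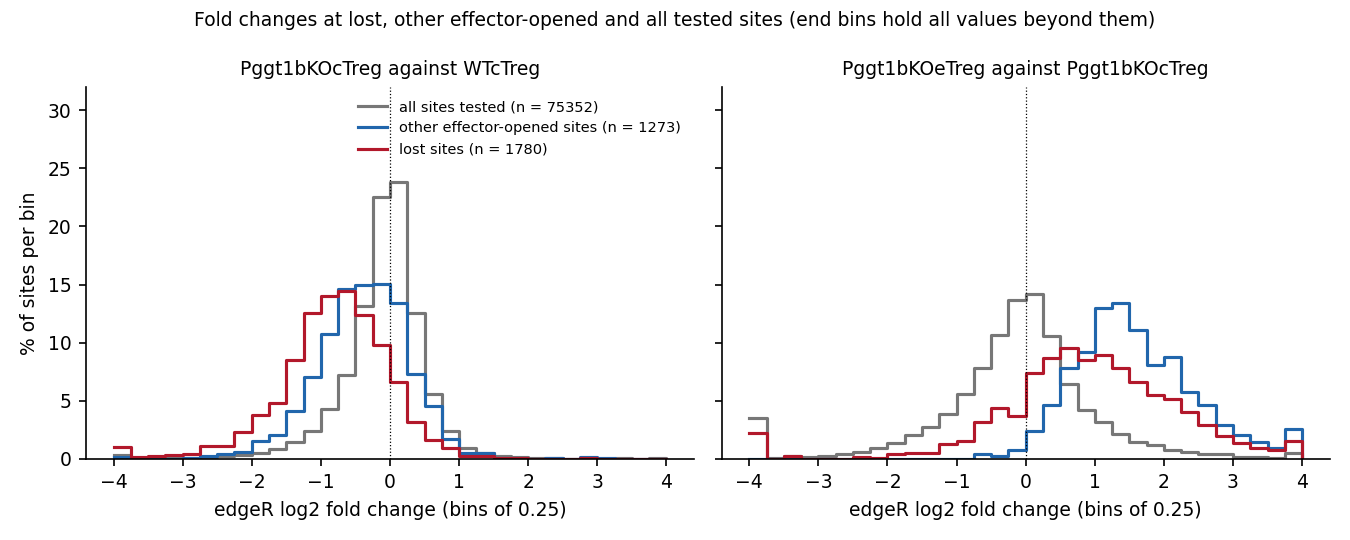
Distribution of edgeR log2 fold changes (bins of 0.25, in percent of each set) at lost sites (red), other effector-opened sites (blue) and all tested sites (grey), for KO against WT cTreg cells on the left and for eTreg against cTreg cells in KO cells on the right. Lost sites have medians of -0.76 on the left and 0.93 on the right, beside -0.03 and -0.06 over all tested sites.

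The share of lost sites that passed the test in cTreg cells was higher at higher depth. With under 40 counts over the 4 cTreg libraries, 1.94% of lost sites fell, against 0.398% of all tested sites of that depth. The share was 7.38% between 40 and 100 counts and 17.5% between 100 and 200, against 0.545% and 1.14%. Of the 344 lost sites with 200 counts or more, 150 fell (43.6%), beside 20.3% of the other effector-opened and 2.84% of all tested sites. The median log2 fold change of lost sites was similar in these classes, from -0.83 in the lowest to -0.68 in the highest. Over all tested sites it was not: it was -0.33 in the lowest class, then -0.11 and -0.04, and 0.002 in the highest. Part of the lean of faint lost sites was thus shared by all sites of that depth. The 274 sites that fell had median levels of 6.94 CPM in WT cTreg, 2.65 CPM in KO cTreg, 24.8 CPM in WT eTreg and 7.65 CPM in KO eTreg cells.

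The site that passed this test with the smallest p was chr6:100757205-100757803. It had 32.7 and 29.9 CPM in the WT cTreg libraries and 10.6 and 10.1 CPM in the KO cTreg libraries. In eTreg cells it had 78.4 and 81.6 CPM in WT and 34.6 and 30.0 CPM in KO libraries. So the KO eTreg values overlapped those of WT cTreg cells, and the KO cTreg values lay below both. The log2 fold change between cTreg groups was -1.60 ± 0.14 (SE; edgeR adjusted p = 1.43e-09, range over 17 alternatives 1.96e-15 to 0.000915).

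The next 4 by p, which like the first were chosen after their values were seen, also had their highest values in WT eTreg and their lowest in KO cTreg libraries. At chr8:131073705-131074076, levels were 25.3 and 27.6 CPM in WT cTreg, 7.91 and 6.43 CPM in KO cTreg, 65.9 and 59.2 CPM in WT eTreg and 23.1 and 39.6 CPM in KO eTreg libraries. At chr2:102797067-102797607 they were 24.3 and 21.6, 5.19 and 8.11, 70.2 and 77.8, and 26.6 and 36.0 CPM in that order of groups. At chr6:122477704-122478107 they were 14.5 and 15.4, 3.39 and 4.19, 57.0 and 64.2, and 14.6 and 19.2 CPM. In each of these the KO cTreg libraries did not overlap with the WT cTreg ones. At chr9:92279282-92279822 the values were 15.8 and 15.2, 5.87 and 3.63, 63.8 and 75.1, and 34.6 and 27.0 CPM, and here, as at chr2:102797067-102797607, both KO eTreg libraries lay above both WT cTreg ones. The log2 fold changes between cTreg groups at these 4 sites were -1.87 ± 0.18, -1.81 ± 0.18, -1.99 ± 0.21 and -1.67 ± 0.20. The edgeR adjusted p was 5.97e-09, 1.24e-08, 4.89e-08 and 1.42e-06. Over 17 alternatives the highest adjusted p at each was 0.0423, 0.0227, 0.0368 and 0.146.

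The 6 sites with the largest fitted falls in cTreg cells among those called were faint. At chr10:112769360-112769487, 20 and 10 counts in the WT cTreg libraries stood against none in both KO cTreg libraries, at least 3.22-fold lower (edgeR adjusted p = 0.00383, range over alternatives 0.00121 to 0.117). chr12:74996791-74996983 had 11 and 14 counts against none, at least 2.68-fold lower (edgeR adjusted p = 0.0192, range 0.00357 to 0.229). chr10:90652438-90652506 had 12 and 9 against none, at least 2.25-fold lower, and chr14:76577120-76577189 had 6 and 12 against none, at least 1.93-fold lower. Their edgeR adjusted p was 0.0321 (range 0.0116 to 0.29) and 0.0427 (range 0.0177 to 0.333). WT cTreg levels at these 4 sites were 0.724 to 1.21 CPM, so their falls started from low levels. Of the remaining pair, chrX:35600412-35600521 went from 33 counts to 1, a ratio of 21.3 (95% Clopper-Pearson interval 1.6 to 432; edgeR adjusted p = 0.0106, range 0.0033 to 0.548). chr5:76766255-76766369 went from 43 counts to 2, a ratio of 13.8 (interval 2.29 to 585; edgeR adjusted p = 0.00816, range 0.00239 to 0.264). Folds against no count were computed against 6 counts over the group and are lower bounds. Intervals and bounds cover counting error only.

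The comparison of eTreg with cTreg cells within the KO genotype asked whether the lost sites opened at all without the enzyme. Some did. Of the 1780 lost sites, 357 rose (20.1%), where 4.59% of all tested sites did, and 7 fell (0.393%), where 4.52% did (edgeR, the same test and threshold, 2 libraries per group). Their log2 fold changes had a median of 0.93, beside -0.06 over all tested sites, and it stayed at 0.93 with the 64 sites that had a group at no count set at their bounds. The KO eTreg values in this comparison were also used, as the low group, to choose the sites. That choice favours a fall here, and its size was not tested. The other effector-opened sites, which were split from the lost ones by their KO eTreg level, so that the choice itself sets them apart here, had 684 of 1273 that rose (53.7%) and 0 that fell, with 0 lower at an unadjusted p under 0.05 as well, and a median of 1.47.

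Here too the libraries bear on the count. Both KO eTreg libraries lay above both KO cTreg libraries at 866 lost sites (48.7%), where 19.8% of all sites did, and below both at 116 (6.52%), where 29.4% did. Without KO cTreg replicate 1 fewer sites rose, among lost sites and over all tested sites, and the median log2 fold change of lost sites was 0.74. The number of lost sites that rose was 154 when the model held the 4 compared libraries alone, beside 3.39% of its tested sites. With limma-voom and group weights it was 221, beside 2.9%. The number that fell, 7, was 1 with the 4 compared libraries alone, beside 2.45%, and 0 with limma-voom, beside 1.21%.

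The contrasts used in the choice, and the interaction that contains their libraries, are set out here for scale only, and nothing is read from them. WT eTreg against WT cTreg cells was called higher at all 1780 lost sites, beside 13.8% of all tested sites. KO against WT eTreg cells was called lower at 1390 (78.1%), beside 6.43%, and at 167 of the 1273 other effector-opened sites (13.1%). The interaction sets the change from WT to KO cells in eTreg against that in cTreg cells, and lower means more negative in eTreg cells. It was called lower at 120 lost sites (6.74%), beside 0.555%, and higher at 0, beside 0.957%. At an unadjusted p under 0.05 edgeR had it lower at 678 and higher at 5, beside 5953 and 5403 of all tested sites. DESeq2 and limma-voom called 60 and 46 lost sites lower.

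The most accessible lost site in WT eTreg cells was chr8:79425520-79426606, 1086 bp wide. It had 140.3 and 141.2 CPM in the WT eTreg libraries and 35.5 and 55.3 CPM in the KO eTreg libraries. In cTreg cells it had 33.9 and 26.2 CPM in WT and 12.4 and 14.3 CPM in KO libraries. The KO eTreg libraries thus lay above both WT cTreg libraries, and the KO cTreg libraries below them. It fell between WT and KO cTreg cells by 1.18 ± 0.15 on the log2 scale (SE; edgeR adjusted p = 2.23e-06, range over 17 alternatives 6.1e-08 to 0.00147). It rose between KO cTreg and eTreg cells by 1.75 ± 0.18 (edgeR adjusted p = 1.78e-08, range 3.71e-15 to 0.000585).

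The site with the next highest level, chr13:97257228-97257825, showed no detectable opening in KO cells. Its levels were 35.7 and 29.7 CPM in WT cTreg, 87.3 and 94.8 CPM in WT eTreg, 19.0 and 25.2 CPM in KO cTreg and 19.1 and 28.2 CPM in KO eTreg libraries. The 2 KO groups overlapped, and their log2 fold change was 0.09 ± 0.20 (edgeR adjusted p = 0.837, range 0.436 to 0.887). Between cTreg groups it fell by 0.58 ± 0.14 (edgeR adjusted p = 0.0133, range 0.00306 to 0.467).

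The third, chr3:7503031-7503815, had 35.6 and 28.0 CPM in WT cTreg, 95.5 and 84.3 CPM in WT eTreg, 16.6 and 18.2 CPM in KO cTreg and 44.3 and 42.0 CPM in KO eTreg libraries. Its log2 fold change was -0.87 ± 0.14 between cTreg groups (edgeR adjusted p = 9.82e-05, range 1.81e-05 to 0.263) and 1.34 ± 0.17 between the KO subsets (edgeR adjusted p = 1.15e-06, range 3.7e-09 to 0.00126). The fourth, chr7:58979482-58979677, was narrow, at 195 bp, and had 10.7 and 9.16, 81.8 and 88.4, 3.73 and 5.45, and 23.5 and 20.4 CPM in the same order of groups. It combined a steep WT opening with a rise of 2.31 ± 0.25 in KO cells (edgeR adjusted p = 3.53e-08, range 6.85e-14 to 0.00124) and a log2 fold change of -1.14 ± 0.21 between cTreg groups (edgeR adjusted p = 0.000925, range 0.000225 to 0.316).

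At the fifth, chr1:182129292-182130124, the cTreg groups overlapped, with 29.5 and 19.7 CPM in WT and 15.4 and 20.4 CPM in KO libraries. Its log2 fold change there was -0.47 ± 0.16 and did not pass the test (edgeR adjusted p = 0.106, range 0.0303 to 0.882). In eTreg cells it had 76.6 and 85.6 CPM in WT and 36.4 and 37.2 CPM in KO libraries, a rise of 1.07 ± 0.20 over KO cTreg cells (edgeR adjusted p = 0.000354, range 0.00019 to 0.0165). The sixth was chr6:100757205-100757803, described above, with a rise of 1.67 ± 0.19 between the KO subsets (edgeR adjusted p = 8.4e-08, range 3.11e-12 to 0.00116). Thus 5 of these 6 sites rose between KO cTreg and eTreg cells and 5 fell between the cTreg groups.

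**Figure D4:**
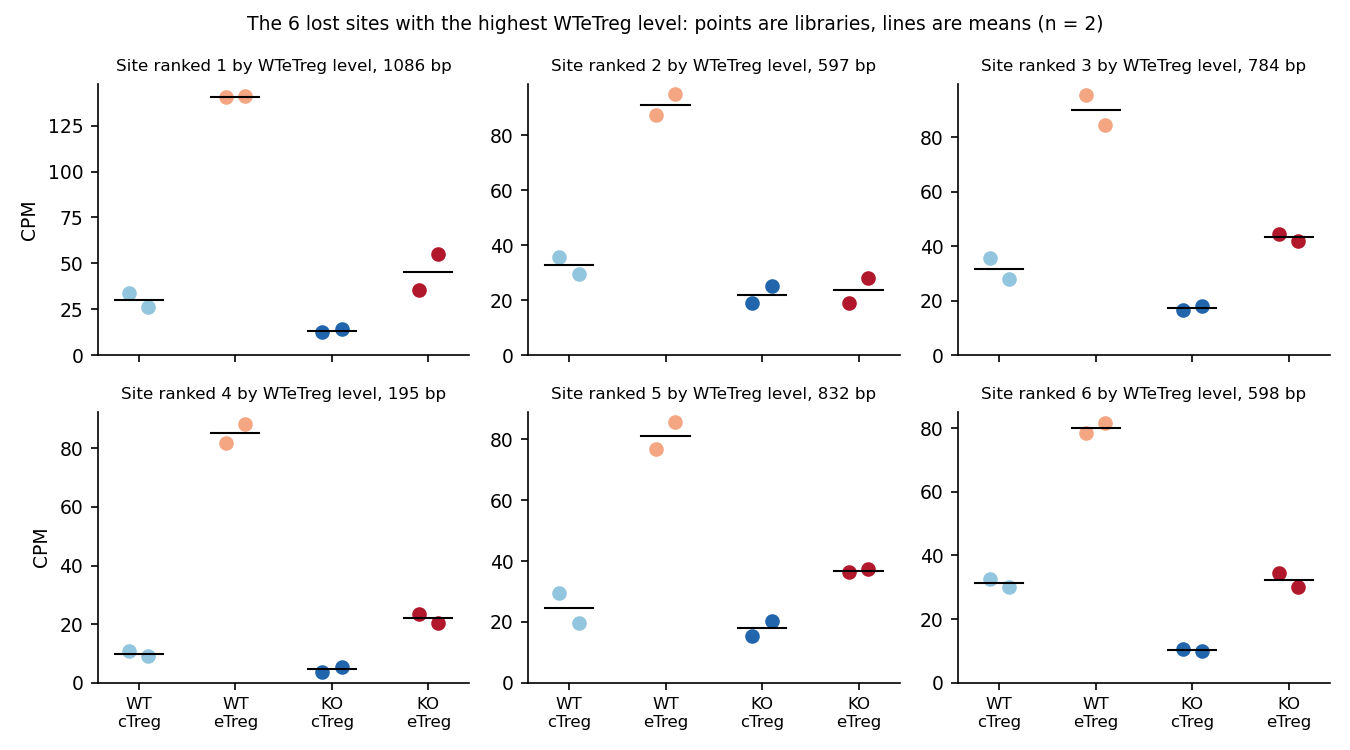
Levels in CPM of the 6 lost sites with the highest WT eTreg level, with 1 point per library, lines at the mean of the 2 libraries and a separate axis from 0 for each site. The WT eTreg points stand above all others at every site, at 76.6 to 141.2 CPM.

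At the other end were the sites with the lowest ratio of KO to WT eTreg cells, which are named by the selected contrast and carry no test. chr2:136357765-136358070 had 82 and 232 counts in the WT eTreg libraries and none in both KO eTreg libraries, at least 7.84-fold lower. It kept 10 and 14 counts in the KO cTreg libraries, beside 22 and 32 in WT cTreg. chr14:123378177-123378309, chr1:93839253-93839374 and chr17:78703533-78703784 had 253, 241 and 213 counts over the WT eTreg libraries and also none in KO eTreg cells, at least 6.32-fold, 6.02-fold and 5.32-fold lower. chr10:93331136-93331353 went from 584 counts to 2, a ratio of 43.7 (95% Clopper-Pearson interval 7.79 to 1730), and chr5:91467783-91467986 from 478 to 2, a ratio of 35.8 (6.36 to 1420).

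Lost sites started from different levels in WT cTreg cells. At 332 of them (18.7%) the WT cTreg level was under 1 CPM, so that they were nearly closed before the effector stage. Medians there were 0.684 CPM in WT cTreg, 5.56 CPM in WT eTreg, 0.437 CPM in KO cTreg and 1.53 CPM in KO eTreg cells. At 914 sites (51.3%) the WT cTreg level was from 1 to under 4 CPM, with medians of 2.01, 7.81, 1.25 and 2.04 CPM in that order. The remaining 534 (30.0%) were already open in WT cTreg cells, with medians of 7.04, 22.2, 4.25 and 7.65 CPM. In each class the KO cTreg median was the lowest. The median log2 ratio of KO to WT cTreg cells was -0.27, -0.58 and -0.73 in the 3 classes, and 0.01, -0.26 and -0.44 at the other effector-opened sites. The added 0.5 CPM shrinks the ratio of the lowest class most. The classes were cut by the WT cTreg level, which is also the denominator of this ratio. A trend over the classes can come from that cut alone, so nothing is read from it.

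Lost sites were of medium width. Their median was 162 bp, from 3 to 1099 bp, beside 168 bp for the other effector-opened sites, 225 bp for all 37057 sites of at least 4 CPM in WT eTreg cells and 104 bp for all sites. Width followed level: the median was 108, 140 and 268 bp in the classes of rising WT cTreg level. The widest, chr8:55162255-55163354, had 23.0 and 20.2 CPM in WT cTreg, 46.0 and 55.6 CPM in WT eTreg, 8.58 and 11.2 CPM in KO cTreg and 17.7 and 18.0 CPM in KO eTreg libraries. Between cTreg groups it fell by 1.14 ± 0.17 (edgeR adjusted p = 4.72e-05, range 7.12e-06 to 0.352). The second widest was the most accessible site, chr8:79425520-79426606, and the fourth was chr1:182129292-182130124, at 832 bp.

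The third widest, chr8:41680187-41681044, was uneven between WT libraries. It had 54.1 and 19.6 CPM in the WT cTreg libraries, 89.2 and 62.4 CPM in WT eTreg, 5.99 and 10.9 CPM in KO cTreg and 28.4 and 25.8 CPM in KO eTreg libraries. Both WT cTreg values still lay above both KO cTreg values, and the log2 fold change was -2.15 ± 0.28 (edgeR adjusted p = 4.43e-06, range 2.72e-10 to 0.029).

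Lost sites lay on all autosomes and on chromosome X. As a share of the sites of at least 4 CPM in WT eTreg cells, they ranged from 1.92% on chromosome 11 to 6.53% on chromosome 18. As a share of effector-opened sites they ranged from 42.6% on chromosome 19 to 68.6% on chromosome X. These shares are descriptions of sites, which are not replicates.

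Lost sites also lay near each other. Another lost site was within 10 kb for 477 of them (26.8%), whereas a lost site was that near for 15.9% of the other effector-opened sites and for 3.7% of the sites of at least 4 CPM in WT eTreg cells that were not effector-opened. Within 50 kb these shares were 40.3%, 30.5% and 13.2%. How near the other effector-opened sites lay to each other was not measured, so closeness is not shown to be particular to lost sites. Whether close lost sites belong to the same stretch of open chromatin was not tested. Linked at 10 kb, the lost sites formed 1303 single sites, 181 pairs, 24 runs of 3, 8 runs of 4, 1 of 5 and 1 of 6. Most were therefore solitary, with a median gap of 104944 bp to the nearest lost site, and 366 had no site of any kind within 10 kb.

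Sites that were not lost sites themselves were compared by their gap to the nearest one. The 884 within 1 kb had a median log2 ratio of 0.89 for WT eTreg over WT cTreg and of -0.77 for KO over WT eTreg. Of them, 9.28% met the conditions for effector-opened sites, against 1.25% of the sites beyond 200 kb. The 884 had a median WT eTreg level of 2.45 CPM, under the 4 CPM that those conditions ask for. Their median ratio of KO to WT cTreg cells was -0.28. At 1 to 5 kb the 3 medians were 0.28, -0.36 and -0.17, at 5 to 10 kb they were 0.09, -0.18 and -0.11, and beyond 200 kb they were -0.06, -0.02 and -0.01. The shift thus shrank with distance and was small beyond 10 kb. Neighbours within 1 kb were narrow, with a median of 71 bp, and whether they belong to the same stretch of open chromatin as the lost site was not tested, so they are not counted as separate observations.

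**Figure D5:**
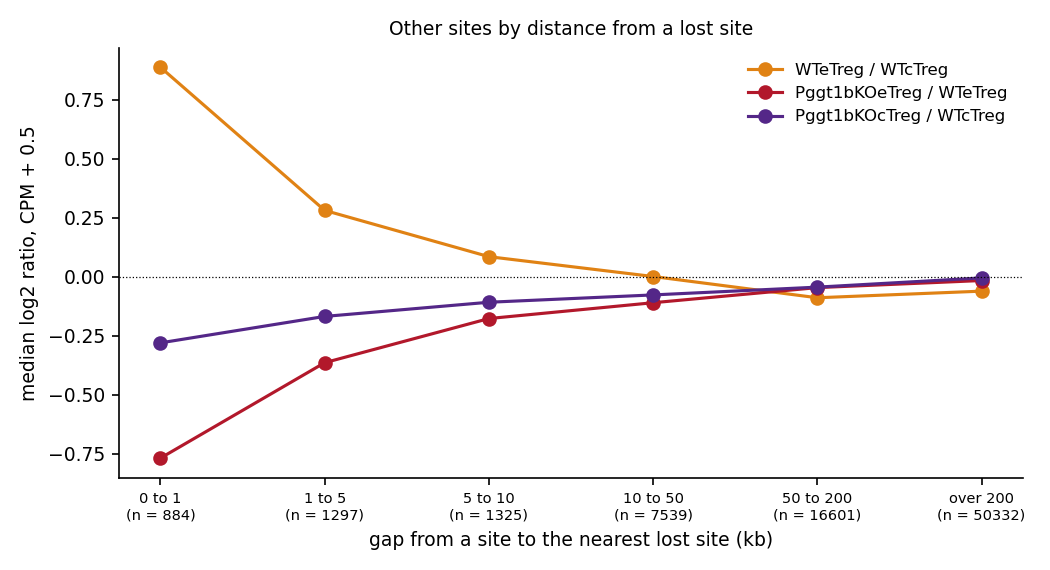
Median log2 ratio of CPM + 0.5 at sites that are not lost sites, by the gap to the nearest lost site in kb, for WT eTreg over WT cTreg (orange), KO over WT eTreg (red) and KO over WT cTreg (purple); the number of sites per class stands below the axis, and the last class includes sites on sequences without a lost site. All 3 lines start away from 0 in the nearest class, at 0.89, -0.77 and -0.28, and come close to 0 beyond 10 kb.

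In windows of 200 kb, 940 held 1 lost site, 234 held 2, 69 held 3, 21 held 4, 10 held 5, 4 held 6 and 1 held 7. The densest, at 89.6 to 89.8 Mb of chromosome 13, held 7 among 17 sites, between positions 89633209 and 89682561. Their levels were 0.684 to 8.69 CPM in WT cTreg, 4.32 to 36.0 CPM in WT eTreg, 0.25 to 5.56 CPM in KO cTreg and 0 to 6.12 CPM in KO eTreg cells. The log2 ratio of KO to WT cTreg cells was below 0 at each of the 7, and 1 of them fell in the edgeR test. The other 10 sites of the window leaned the same way, with median log2 ratios of 0.80 for WT eTreg over WT cTreg and -1.16 for KO over WT eTreg cells. None of the 7 rose between KO cTreg and eTreg cells.

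In the 3 windows that follow by number of lost sites, with 6 each, the surrounding sites moved less. At 97.4 to 97.6 Mb of chromosome 4, the lost sites had 5.31 to 28.7 CPM in WT eTreg and 0 to 9.69 CPM in KO eTreg cells. The other 24 sites of that window had medians near 0, at 0.05 and -0.08 for the same ratios. At 108.2 to 108.4 Mb of chromosome 6 the lost sites had 4.17 to 41.6 CPM in WT eTreg and 1.02 to 13.8 CPM in KO eTreg cells, and the other 21 sites had medians of 0.66 and -0.17. At 79.8 to 80 Mb of chromosome 8 the lost sites had 4.59 to 71.3 CPM in WT eTreg and 0.51 to 14.5 CPM in KO eTreg cells, and the other 26 sites had medians of 0.39 and -0.33. In each of these 3 windows 1 lost site fell between cTreg groups, and 2, 2 and 3 rose between the KO subsets.

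1 more window also held 6 lost sites and is named after its values were seen. At 17.2 to 17.4 Mb of chromosome 10 they made up 6 of 11 sites, all between positions 17259058 and 17270313, and 3 of the other 5 were effector-opened as well. The 6 were nearly closed in cTreg cells, with 0.563 to 1.97 CPM in WT and 0.0625 to 1.37 CPM in KO cells. They had 6.65 to 19.5 CPM in WT eTreg and 1.02 to 5.10 CPM in KO eTreg cells, and 4 of the 6 rose between the KO subsets.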

How the data were processed

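ATAC-seq was analysed in 8 libraries of mouse Treg cells, grouped by their titles. The authors deposited 1 table of raw counts, whole numbers per site, in which every column matched 1 title. The submitters' processing notes name MACS2 2.1.1, bedtools, SAMtools, Picard 2.9.4, Trimmomatic 0.36 and the build mm9 (NCBIM37). For the aligner, the shift of read ends, the threshold and pooling used in peak calling and the unit counted (read or fragment), the sources used here give nothing. A list of sites called mostly in deep libraries would hold fewer sites particular to shallow ones. Whether starts count from 0 or 1 is not stated either.

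CPM are counts per 1e6 of the column total over all sites, summed over the 2 libraries of a group for group levels. Ratios added 0.5 CPM. Counts were tested with edgeR 4.0.16 in R 4.3.3: filterByExpr with a minimum count of 10, which left 75352 sites, TMM scaling, 1 mean per group over all 8 libraries, and two-sided quasi-likelihood F tests with Benjamini-Hochberg adjustment over the sites tested. Standard errors were derived from the log2 fold change and its F value. The scripts were tested on simulated data. Even numbers made up 66.1% to 77.4% of the counts from 1 to 10, depending on the library, so bounds used 3 pairs, or 6 counts, and Clopper-Pearson intervals took each pair as 1 observation.

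The set and its lists were chosen with earlier results of these data known. Named were the 6 lost sites with the highest WT eTreg level, the 6 with the lowest ratio of Pggt1b-deficient to WT eTreg cells, the 6 lowest and up to 4 highest fold changes called between cTreg groups, the 4 widest, the sites next to each bound and the 4 windows with most lost sites. Sites by smallest p and 1 more window were added after their values were seen. GC content, motifs and gene lists were planned but not run, for want of an mm9 genome. Alternatives were DESeq2 1.42.0, limma-voom with group weights (limma 3.58.1), other scalings, loess offsets, no filter, only the compared libraries, thinned counts, a replicate block and each library left out.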

Additional observations from a re-analysis of the deposited data

Results flagged for a closer look

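The change from WT to KO cells was called lower, meaning more negative, in eTreg than in cTreg cells at 120 lost sites (6.74%), beside 0.555% of all tested sites. It was called higher at 0, beside 0.957% (interaction, edgeR adjusted p under 0.05). At an unadjusted edgeR p under 0.05 it was lower at 678 and higher at 5, beside 5953 and 5403 of all tested sites. Values of 3 of the 4 groups in this interaction, all but KO cTreg, were used to choose the sites. That choice favours lower calls, so the counts are given as a description.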

How the results depend on the processing

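The number of lost sites called lower in KO than in WT cTreg cells, 274, was 160 with DESeq2 and 14 after thinning to the smallest total, and 61 to 382 with single libraries left out. None was called higher in any of the 17 alternatives, and the median log2 fold change stayed between -0.97 and -0.58. The number that rose between KO cTreg and eTreg cells, 357, was 221 with limma-voom (2.9% of all tested sites), 154 with only the compared libraries (3.39% of 54277), 170 thinned (4.75% of 37236) and 185 to 359 with single libraries left out. The 7 that fell were 1 with DESeq2, 0 with limma-voom, 1 with only the compared libraries, 1 thinned and 0 to 11 with single libraries left out. The median of that comparison was 1.02 thinned and 0.74 to 1.15 with single libraries left out. For the contrasts used in the choice, the calls higher in WT eTreg cells were 875 thinned, beside 6.88% of the sites tested. Calls lower in KO than in WT eTreg cells were 811 with limma-voom, 719 thinned and 853 to 1409 with single libraries left out. Interaction calls, 120 lower and 0 higher, were 60 lower with DESeq2, 46 with limma-voom, 3 thinned, and 50 to 219 lower and 0 to 1 higher with single libraries left out. With the replicate block the 2 main counts were 270 lower and 350 higher. Differences between replicates 1 and 2 correlated between groups at -0.0156 to 0.0582. Counting error can hold such values near 0, so they do not tell whether libraries share mice.

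The set itself held 1041 sites at a WT eTreg level of at least 8 CPM, where 24.2% were lower in KO cTreg cells and 30.3% rose to KO eTreg cells, shares added after the data were seen. It held 1009 sites when replicates 1 and 2 both had to meet the conditions, and 1596 to 2107 with single libraries left out. Thinned to the smallest library it held 2148, of which 1394 were among the 1780 (78.3% of them). Another lost site was near for 40.3% within 50 kb. Of 87 results of the faint sites named by fold, 60 kept the call, 27 lost it and 0 changed direction; the cause was not tested. Low counts in the KO eTreg libraries limit single sites, and a fit that leaves 1 library in a group assumes that it varies like the others.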
